A study of Mus musculus with 2 samples.

Results

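Cells of mouse small intestinal organoids were described here that carried at least 10% of their counts on genes of the mitochondrial genome, the mt- genes. They were chosen by that share alone, so the share itself is a description of the choice and carries no test. Of 1951 cells assigned to a culture, 129 met it: 111 of 1615 Matrigel cells (6.87%, exact 95% binomial interval 5.69 to 8.22%) and 18 of 336 collagen cells (5.36%, 3.21 to 8.33%). The table held 2090 cells in all, each with its own barcode, and the other 139 are named as doublets in the deposited table. The organoids came from crypts of the proximal small intestine of C57BL/6 wild-type mice, and cells were harvested on day 4. Matrigel cultures received EGF at 50 ng/mL, Noggin at 100 ng/mL and R-spondin1 at 400 ng/mL, and type I collagen cultures received these plus nicotinamide (10 mM), Wnt3a (100 ng/mL) and bovine serum albumin (1%). Collagen organoids were released with collagenase and Matrigel organoids with a recovery solution, then both were dispersed with TrypLE, strained, hashtagged through an EpCAM antibody and run as 1 pooled library from 1 suspension per culture. Matrix, medium and release therefore differ together, the number of mice is not given in the labels, and no test across samples is possible: intervals below cover counting error only.

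The mitochondrial genome encodes core subunits of the respiratory chain and of ATP synthase, and its RNA is made and kept inside mitochondria. Most other messengers are spliced in the nucleus and translated in the cytosol, while a few RNAs such as Malat1 and Neat1 stay in the nucleus, Malat1 in nuclear speckles and Neat1 as the scaffold of paraspeckles. The share of mitochondrial RNA is a common quality measure of single-cell libraries, and intestinal epithelial cells also differ in how much mitochondrial RNA they hold. Each high-share cell was set against cells of its own culture with less than 10%, called the comparison cells (1504 Matrigel, 318 collagen). Levels of genes other than mt- are given as CPM, counts scaled to a total of 1000000 without mitochondrial genes.

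High-share cells held about as many mitochondrial counts as comparison cells and far fewer counts of everything else. In Matrigel the mitochondrial count ran from 5040 to 19749 with a median of 9167 in high-share cells, and from 140 to 23676 with a median of 8524 in comparison cells, a ratio of medians of 1.08. The non-mitochondrial count ran from 21090 to 92507 (median 32568) against 32101 to 510261 (median 175242), so the comparison median was 5.38-fold higher. The first ranges overlapped almost fully, and in the second 49 of 111 high-share cells lay below every comparison cell. In collagen the medians were 5406 (4021 to 14920) against 4143 (110 to 21943) mitochondrial counts, a ratio of 1.30, and 31532 (22824 to 53056) against 122763 (28458 to 697158) other counts, 3.89-fold higher in comparison cells. All 111 and all 18 high-share cells lay below the lower quartile of their culture's comparison cells in non-mitochondrial counts. The rule uses both quantities, so these values describe how the share came about and are not findings. The hashtag count, taken from a separate library, had medians of 3456 against 3200 in Matrigel and 5303 against 4921 in collagen.

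**Figure D1:**
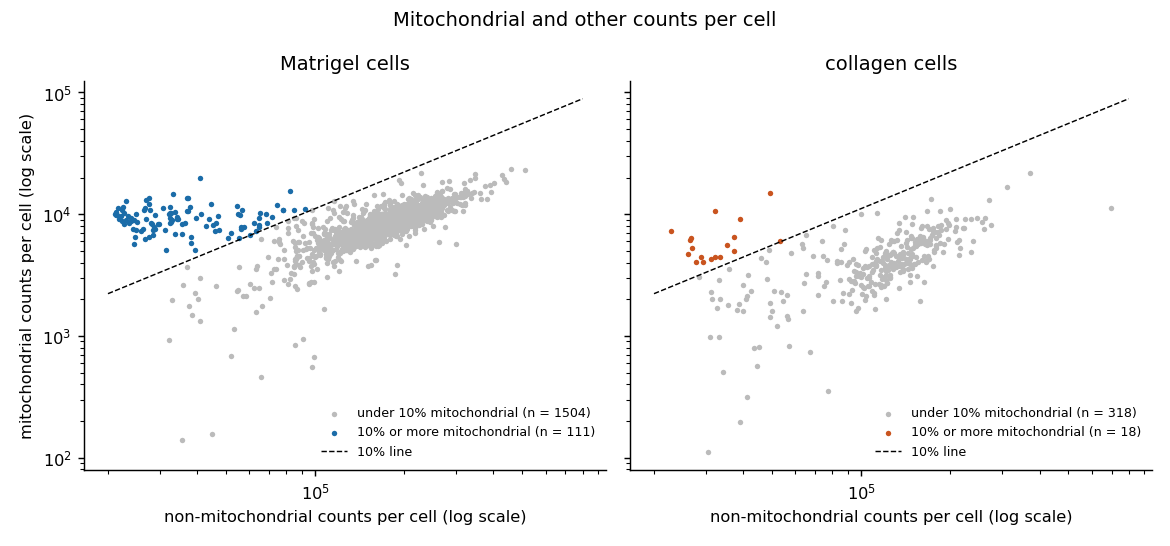
Mitochondrial counts (vertical, log scale) against non-mitochondrial counts (horizontal, log scale) for each cell of the 2 cultures, with the cells at 10% or more marked apart from the rest. The 111 Matrigel and 18 collagen cells sit at the left edge at mitochondrial counts within the range of the other cells.

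The mitochondrial share itself ran from 10.1 to 35.8% with a median of 21.4% in Matrigel and from 10.2 to 24.9% with a median of 14.3% in collagen. Of the Matrigel cells 16 reached 30%, and of the collagen cells 0 did, which allows a share of up to 0.893%. In mitochondrial share there was no wide gap at the threshold. The 10 Matrigel cells just inside (10.1 to 11.4%) had a median of 858 CPM of Malat1 and the 10 just outside (8.84 to 9.995%) one of 1001 CPM. The corresponding collagen medians were 4036 CPM (10.2 to 14.95%) and 712 CPM (8.07 to 9.73%), so Malat1 differed there, with overlapping ranges. Non-mitochondrial counts of the cells just inside and just outside had medians of 63889 and 88396 in Matrigel and 32693 and 55944 in collagen. No cell of the table held under 30139 counts in total, and the median total of high-share cells was 42366 in Matrigel and 35891 in collagen, so a cell with less RNA would not be in the table.

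The make-up of the mitochondrial RNA was close to that of comparison cells. The table lists 13 mt- genes, all protein-coding. In Matrigel mt-Nd1, a complex I subunit, took 20.1% of mitochondrial counts against 20.5%, and mt-Co1, the catalytic subunit of cytochrome oxidase, took 18.1% against 17.3%. Ratios over the 13 genes ran from 0.919 (mt-Cytb and mt-Nd4) to 1.08 (mt-Co3). In collagen they ran from 0.821 (mt-Nd6) to 1.23 (mt-Co3), with mt-Co1 at 21.4% against 23.2%. For 8 of the genes over 99% of the nonzero values were fractional.

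Nuclear copies of mitochondrial genes carried part of this RNA under other names, and they were looked for after their values had been seen. Only genes annotated as pseudogenes in GENCODE M21 were searched. Of these, 9 shared more than 50% of their 25-base stretches with a mitochondrial transcript, all annotated there as unprocessed pseudogenes. Gm28661, of 681 bases, is identical to mt-Co2 over its whole length, as its first 60 bases show below, and Gm29216, of 492 bases, differs from mt-Co1 at 6 bases. All 6 lie in the first 60 bases of Gm29216 and are in capitals, with the same stretch of mt-Co1 beneath. The sequences are GENCODE M21 transcripts, 5′ to 3′.
Gm28661 (1 to 60): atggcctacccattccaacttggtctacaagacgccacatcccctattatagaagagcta
mt-Co2 (1 to 60): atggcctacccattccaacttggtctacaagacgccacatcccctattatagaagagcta
Gm29216 (1 to 60): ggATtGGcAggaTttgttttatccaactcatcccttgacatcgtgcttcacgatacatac
mt-Co1 (1054 to 1113): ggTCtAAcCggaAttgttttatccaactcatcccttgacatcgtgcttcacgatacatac

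Where sequences are this alike, reads of a copy and of the mitochondrial gene cannot be told apart, and 99.7 to 100% of the copies' values were not whole. The least alike of the 9, Gm13341, had 173 differences from mt-Co2 over 672 bases when aligned without gaps. Gm28661 stood at 27963 CPM in high-share Matrigel cells against 5290, and at 24119 against 4317 in collagen. Gm10925, identical to mt-Atp6 over its 678 bases, stood at 26656 against 5248 and 22096 against 3860 CPM. The 9 copies together made up 8.93% of the non-mitochondrial counts of high-share Matrigel cells against 1.71%, and 7.44% against 1.30% in collagen. Set against the mitochondrial counts they were nearly constant, at 37.1% and 35.4% in Matrigel and 39.0% and 36.0% in collagen. Counted as mitochondrial, they would bring 151 Matrigel cells (9.35%) and 34 collagen cells (10.1%) to the threshold, all 129 described here among them. Rn18s-rs5, a gene related to the 18S ribosomal RNA and also picked out after its values were seen, stood at 16755 against 4480 CPM in Matrigel and 17929 against 5325 in collagen.

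Malat1 had the largest ratio of the nuclear-retained RNAs in Matrigel. In Matrigel the level per high-share cell ran from 122 to 21353 CPM with a median of 2525, against 0 to 45705 with a median of 267. In collagen it ran from 0 to 23870 (median 5211) against 0 to 80273 (median 437). The ranges overlapped fully, but 106 of 111 and 17 of 18 high-share cells lay above the median of their comparison cells, and 12 of 1504 and 11 of 318 comparison cells lay above the median of the high-share cells. Summed over cells the level was 3171 CPM (exact Poisson 95% interval 3119 to 3225) against 355 (353 to 357) in Matrigel, a log2 ratio of 3.16. In collagen it was 6825 (6617 to 7039) against 938 (929 to 948), a log2 ratio of 2.86, with 20.7% of the high-share counts in 1 of the 18 cells. As counts rather than shares the gap was smaller: a median of 85 Malat1 counts per cell against 47 in Matrigel and 174 against 56 in collagen. Neat1 stood at 133 against 23.7 CPM (log2 2.44) in Matrigel and at 375 against 92.1 (2.01) in collagen.

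How far Malat1 stood apart depended on the depth of the comparison cells. Against the 105 Matrigel and 41 collagen comparison cells with no more counts than the deepest high-share cell, the log2 ratio was 1.71 and 0.81, and that of Neat1 was 1.90 and 0.51. Within the quartiles of the high-share cells' own non-mitochondrial counts, 13 Matrigel and 12 collagen comparison cells remained, and the log2 ratio of Malat1 was 0.05 and -0.25. There 1 comparison cell held 72.3% of the Malat1 counts in Matrigel and 61.0% in collagen. The medians over cells at that depth were still 3031 against 533 CPM in Matrigel and 5753 against 45.1 CPM in collagen. In each culture the comparison cell with the highest Malat1 level lay above every high-share cell and fell within this depth range, while the median comparison cell there was far below the median high-share cell.

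Among high-share cells the levels went with the mitochondrial share, while among comparison cells the rank correlations were weak. Summed Malat1 nevertheless rose below the threshold too, between the classes of 2.5 to 5% and 7.5 to 10% in both cultures. In Matrigel Malat1 stood at 336 CPM in cells from 2.5 to under 5%, at 697 from 7.5 to under 10%, at 1207 from 10 to under 15%, at 3801 from 15 to under 30% and at 7630 CPM in the 16 cells at or above 30%. Below 2.5% it was 706 CPM over 17 cells, so the order did not hold at the low end. Neat1 went from 22.6 to 343 CPM over the same 5 classes, and the share of ribosomal protein genes from 30.4 to 7.64%. Within the 111 cells Spearman's rho with the mitochondrial share was 0.65 for Malat1, -0.79 for the ribosomal share and -0.84 for the non-mitochondrial count, as a description of cells of 1 library whose share and depth are tied by construction. Within the 1504 comparison cells rho was 0.05 for Malat1 and 0.11 for the ribosomal share. In collagen rho was 0.49 for Malat1 and -0.65 for the ribosomal share over the 18 high-share cells, and -0.08 and 0.05 over the 318 comparison cells. Collagen Malat1 stood at 1310 CPM below 2.5%, at 584 from 2.5 to under 5%, at 2499 and 3619 in the next 2 classes, at 5737 from 10 to under 15% and at 8332 CPM in the 8 cells above. The class at 2499 CPM holds the comparison cell with the most Malat1, at 80273 CPM and a mitochondrial share of 5.97%.

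**Figure D2:**
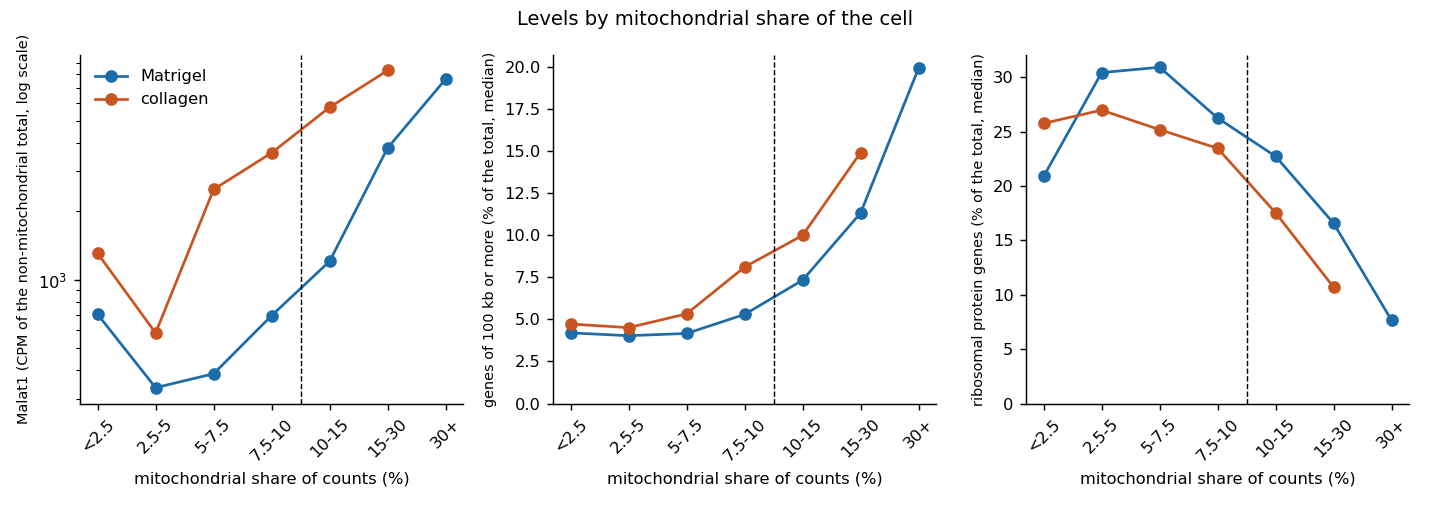
Malat1 (CPM summed over the cells of a class), the share of counts on genes spanning 100 kb or more and the share on ribosomal protein genes (medians over cells, percent), by classes of mitochondrial share, for both cultures. The dashed line marks 10%, and in Matrigel the long-gene share goes from 4.03% in the class from 2.5 to 5% to 19.96% at 30% and above.

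Other RNAs known to stay in the nucleus moved with Malat1. Of 9 measured RNAs of the nuclear-retained list, Malat1 and Neat1 included, 8 were at least 2-fold higher in high-share cells in each culture. The median log2 ratio of the list, with Malat1 and Neat1, was 2.19 in Matrigel and 2.43 in collagen. Over all genes tested, those at 5 CPM or more in either group, 27.5% were at least 2-fold higher in Matrigel and 5.19% lower by that factor (11524 genes), and 33% and 12.9% in collagen (11743 genes). The median gene stood at a log2 ratio of 0.37 in Matrigel and 0.40 in collagen. A gene could pass this floor through high-share cells alone. Among genes of 20 to 50 kb with at least 50 CPM in comparison cells, 5.87% were at least 2-fold higher and 5.59% lower in Matrigel. In collagen it was 7.55% and 10.0%, and the medians were -0.13 and -0.16. The counts and ratios of genes below are to be read against both sets of values, the second for abundant genes. Airn, the antisense RNA of the imprinted Igf2r locus, stood at 251 against 31.7 CPM in Matrigel and 178 against 26.3 in collagen. Its reads cannot be told apart from those of the overlapping Igf2r gene if strand was not used in counting. Firre, a nuclear RNA of the X chromosome, stood at 65.7 against 12.8 and 47.1 against 7.90 CPM, and Xist, which coats the inactive X chromosome, at 890 against 302 and 1459 against 407 CPM. The exception was Norad, an RNA known to be largely cytoplasmic, at 45.3 against 74.1 CPM (log2 -0.70) and 32.8 against 64.3 (-0.95). Against comparison cells no deeper than the deepest high-share cell the list's median was 1.39 and 1.77, and within the depth quartiles it was 0.50 and 0.15.

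The 15 eligible genes with the largest ratios in Matrigel were all longer than the median eligible gene. Ccser1, spanning 1203 kb, had a median of 226 CPM per high-share cell (0 to 3867) against 12.3 (0 to 366), and in collagen of 112 against 8.25. Nr6a1, an orphan nuclear receptor, had a median of 119 (0 to 1375) against 1.04 (0 to 278) in Matrigel. The ranges overlapped for both genes. Summed over cells, Ccser1 stood at 361 against 25.02 CPM (log2 3.80), Nr6a1 at 192 against 12.2 (3.86) and Abcc2, an export pump for organic anions, at 469 against 29.8 (3.93). Magi1, a scaffold of tight junctions, stood at 288 against 24.8 CPM (3.49), Slit2, a secreted guidance ligand, at 165 against 12.9 (3.58) and Hnf4g, an enterocyte transcription factor, at 274 against 24.1 (3.45). Naip3, Dip2c, Pard3b, Pcsk5, Zswim6, Pde4d, Magi3 and Chrm3 were also among the 15, with log2 ratios from 3.41 to 3.73, and 93.4% of the values of Pde4d were not whole. In collagen all 15 had a positive ratio and 14 were at least 2-fold higher, Chrm3 being the exception at 0.35. Against the shallower comparison cells Abcc2 had 3.43 in Matrigel and 1.44 in collagen, Nr6a1 3.74 and 1.91, and Ccser1 2.74 and 2.88.

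The 15 with the lowest ratios were all shorter than the median eligible gene. Ost4, a small subunit of the oligosaccharyltransferase, stood at 74.8 against 284 CPM (log2 -1.91) in Matrigel and at 124 against 315 (-1.34) in collagen. Banf1, which binds DNA at the nuclear envelope, stood at 143 against 469 (-1.70), Snu13, a small nucleolar and spliceosomal protein, at 98.6 against 323 (-1.70) and Atp5g2, a subunit of the ATP synthase ring, at 195 against 622 (-1.67). For Snu13 and Atp5g2 90.1% and 99.2% of values were not whole. Nme4, a mitochondrial nucleoside diphosphate kinase, stood at 12.3 against 52.2 CPM (-2.00), and Cks1b, Ttr, Trmt112, Serf1, Prkar1a, Adi1, Polr3k and Ifitm3 ran from -1.69 to -1.78. Tff3, a goblet cell peptide, had the lowest summed ratio (131 against 723 CPM, -2.46), but its median per cell was higher in high-share cells, 37.1 against 12.5 CPM. The highest comparison cell stood at 56869 CPM and the highest high-share cell at 3269. Mt2, a metallothionein, stood at 796 against 3638 CPM (-2.19). It is 1 of 49 genes that lack low values in the table, and with its zeros at the smallest value kept the ratio was -0.93. In collagen 14 of the 15 had a negative ratio and 10 were at least 2-fold lower, the other direction being that of Ttr at 0.65. Against the shallower comparison cells all 15 stayed at least 2-fold lower in Matrigel. In collagen 11 had a negative ratio there and 6 were at least 2-fold lower, while Ttr stood at 1.33, Ifitm3 at 1.73, Polr3k at 0.30 and Adi1 at 0.05.

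Gene span, the distance from the first to the last base of a gene with its introns, ordered the ratios, and was examined after the named genes had been seen. The 15 highest genes spanned 38.8 to 1504 kb with a median of 392 kb, the 15 lowest 0.905 to 20.3 kb with a median of 4.34 kb, and the 3598 eligible genes with a gene model had a median of 28.0 kb. Over all tested genes the median log2 ratio in Matrigel went from -0.33 for genes under 5 kb (1456 genes) over 0.39 for 20 to 50 kb to 1.41 for 200 kb and more (670 genes). In collagen it went from -0.24 over 0.38 to 1.38. Of the genes of 200 kb and more, 77.6% in Matrigel and 69.1% in collagen were at least 2-fold higher, against 7.97% and 16.9% of those under 5 kb. Spearman's rho between ratio and span was 0.53 over 11126 genes in Matrigel and 0.37 over 11324 in collagen. With exonic length in place of span rho was 0.47 and 0.32, and among genes with at least 50 CPM in comparison cells it was 0.49 for either measure in Matrigel, and 0.41 with span and 0.44 with exonic length in collagen. These are correlations across genes, which are not independent replicates, and span and exonic length were not separated by them.

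Among genes of like transcript length the relation with span was weaker. For genes with 2 to 4 kb of exonic sequence rho with span was 0.26 in Matrigel (3107 genes) and 0.17 in collagen (3209). Their median ratio went from -0.15 under 5 kb to 1.24 at 200 kb and more in Matrigel and from -0.14 to 1.14 in collagen. Among genes with at least 50 CPM in comparison cells it went from -0.64 to 1.11 and from -0.61 to 0.95. Of those of 200 kb and more, 53.3% in Matrigel (45 genes) and 49.1% in collagen (57 genes) were at least 2-fold higher. Of those under 5 kb it was 0.758% and 2.15%. Genes without an intron had a median of -0.13 in Matrigel (589 genes) and -0.03 in collagen (640), and genes whose introns make up at least 95% of the span had 1.15 (1320) and 1.16 (1338). For genes of 100 kb and more the median was 1.05 in Matrigel and 1.02 in collagen against the comparison cells within the depth quartiles. The counting of intron reads was not given in the sources used here. The part of unspliced RNA in these levels was not tested.

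Cell by cell, genes of 100 kb and more made up 3.14 to 29.4% of the non-mitochondrial counts of high-share Matrigel cells, with a median of 10.7%, against 2.52 to 14.4% with a median of 4.07%. In collagen the median was 11.3% (2.59 to 21.4%) against 4.56% (1.80 to 19.6%). The groups overlapped, but 110 of 111 and 17 of 18 high-share cells lay above the median of their comparison cells, and 30 and 2 above every one of them. As counts, long genes were lower in high-share cells, at a median of 4005 against 7128 per Matrigel cell and 3405 against 5877 per collagen cell. Comparison cells thus held 1.78-fold more counts of long genes, but 6.44-fold more of genes under 5 kb, in Matrigel.

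**Figure D3:**
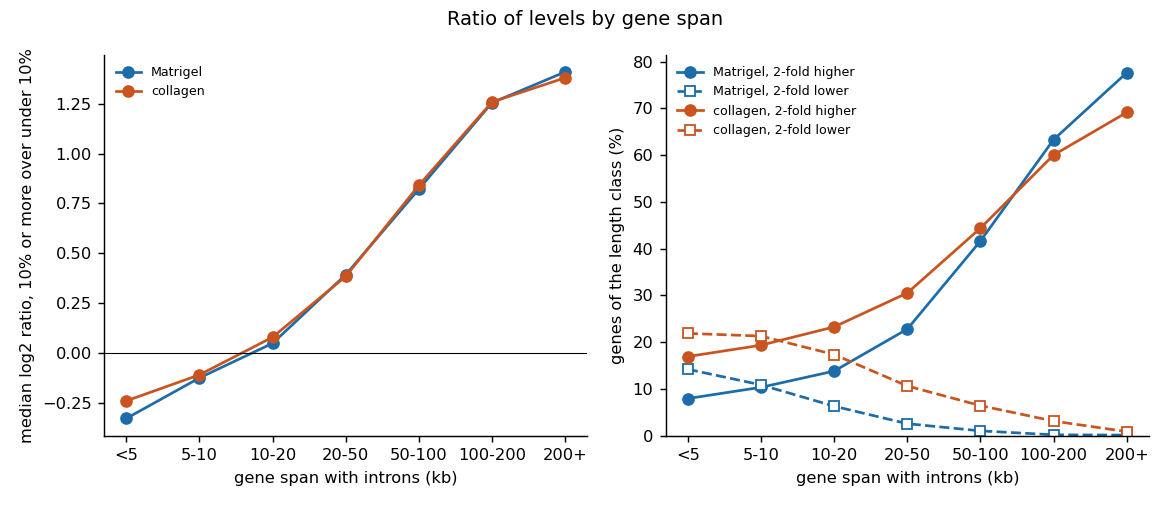
Median log2 ratio of levels, cells at 10% or more over cells under 10% (left), and percent of genes at least 2-fold higher or lower (right), by class of gene span in kb for both cultures. The median goes from -0.33 to 1.41 in Matrigel and from -0.24 to 1.38 in collagen.

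Messengers of the nuclear-encoded mitochondrial proteins were not a larger part of the RNA in these cells. Of 37 nuclear subunits of complex I, 9 were at least 2-fold lower in each culture and 0 higher, with a median log2 ratio of -0.75 in Matrigel and -0.54 in collagen. Ndufc2 stood at 163 against 459 CPM (-1.49) in Matrigel and 119 against 200 (-0.75) in collagen, and Ndufb4 at 138 against 333 (-1.27) and 100.8 against 278 (-1.46). Of 24 subunits of complexes II, III and IV, 0 were higher and 6 lower in Matrigel (median -0.78), and 0 and 5 in collagen (-0.65). Cox8a, a small subunit of cytochrome oxidase, had a median of 493 CPM per high-share cell (0 to 1863) against 1644 (81.5 to 3616) in Matrigel, and of 610 against 1764 in collagen. Uqcrb, of complex III, had 158 against 742 CPM in Matrigel. Both ranges overlapped. Of 17 measured nuclear ATP synthase subunits 4 were lower in Matrigel (median -0.57) and 3 in collagen (-0.41), and 0 were higher. The 3 lists had median spans of 8.38, 5.52 and 7.19 kb. Of all genes of 5 to 10 kb with at least 50 CPM in comparison cells, 18.3% in Matrigel and 19.3% in collagen were at least 2-fold lower. Their medians were -0.55 and -0.47, so these lists were not far from other genes of like span and level.

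Proteins that make, import and translate the mitochondrial RNA divided by gene. The mitochondrial ribosome list had 0 of 62 genes higher and 9 lower in Matrigel (median -0.52) and 1 higher and 19 lower in collagen (-0.55), with Mrpl34 at 47.5 against 186 CPM (-1.94) and 40.4 against 158 (-1.94). Among genes of mitochondrial transcription and genome upkeep 6 of 26 were higher and 1 lower in Matrigel (median 0.15), and 10 and 4 of 28 in collagen (0.23), a median whose sign changed with the scaling in both. Of all tested genes 27.5% and 33% were at least 2-fold higher and 5.19% and 12.9% lower. Among genes of 5 to 10 kb with at least 50 CPM in comparison cells 18.3% and 19.3% were lower. Nrf1, a nuclear activator of respiratory genes, stood at 78.5 against 21.2 CPM (1.84) and 61.4 against 18.5 (1.68). Tfam, which packages the mitochondrial genome and starts its transcription, stood at 64.5 against 102 CPM (-0.66) and 45.4 against 49.1 (-0.11). Of 29 genes of import, dynamics and quality control 2 were higher and 5 lower in Matrigel (median -0.42), and 2 and 6 in collagen (-0.36). The chaperonin pair Hspd1 (496 against 1088 CPM, -1.13) and Hspe1 (651 against 1461, -1.16) was among the lower ones, and Mfn2, a fusion protein of the outer membrane, was at 37.9 against 11.1 CPM (1.68) in Matrigel. The median of Mfn2 per Matrigel cell was 0 in high-share cells against 5.69 CPM. In collagen it had 1 count in the 18 high-share cells (1.68 CPM, exact Poisson interval 0.0426 to 9.37) against 11.2 CPM. The tricarboxylic acid cycle list had 1 of 17 higher, Ogdh (143 against 45.2 CPM, 1.64), and 0 lower in Matrigel, and 1 and 2 in collagen.

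Cytosolic ribosomal protein messengers were a smaller part of the RNA of high-share cells. They made up 2.94 to 34.8% of non-mitochondrial counts in high-share Matrigel cells, with a median of 18.0%, against 6.59 to 40.3% with a median of 30.5%. In collagen the medians were 15.4% (4.95 to 22.6%) and 26.7% (7.43 to 39.0%). The ranges overlapped, with 107 of 111 and 18 of 18 high-share cells below the lower quartile of their comparison cells. Large-subunit genes had a median log2 ratio of -0.63 in Matrigel, with 5 of 46 at least 2-fold lower, and -0.85 in collagen, with 14 lower. Small-subunit genes had -0.74 with 4 of 31 lower and -0.84 with 11 lower, and 0 genes of either subunit were at least 2-fold higher. The lists had median spans of 3.31 and 3.29 kb. Of all genes under 5 kb with at least 50 CPM in comparison cells, 21.02% in Matrigel and 24.4% in collagen were at least 2-fold lower. Their medians, with ribosomal genes included, were -0.64 and -0.61. In Matrigel the ribosomal lists were thus not far from abundant genes of like span, while in collagen their medians were lower. Rpl23a, at the exit of the ribosome's tunnel, had a median of 1505 CPM per cell (39.7 to 7503) against 4924 (225 to 7489) in Matrigel, and Rps15a one of 1371 against 5213. Over 90% of the values of Rpl23a and Rps15a were not whole (99.5% and 93.8%), and whether near-identical copies took part of their reads was not tested. At matched depth the medians were -0.57 and -0.63 in Matrigel and -0.65 and -0.60 in collagen for the large and the small subunit.

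By list median, other housekeeping groups were lower by less than the ribosomal genes, apart from splicing genes, which are given last. Pabpc1, which binds the poly(A) tail, was the only translation factor of 20 at least 2-fold higher, at 2126 against 997 CPM (1.09) in Matrigel and 2163 against 968 (1.16) in collagen, with a list median of -0.22 and -0.43. Of 30 genes of the endoplasmic reticulum and secretion 7 were lower in Matrigel and 10 in collagen (medians -0.44 and -0.70), among them Spcs1, of the signal peptidase, at 66.8 against 214 CPM (-1.67). Against Matrigel comparison cells no deeper than the deepest high-share cell the list median was -0.61. That was close to the -0.57 and -0.64 of the large and small ribosomal subunit. Of 20 actin, tubulin and other abundant genes 4 were lower in Matrigel, with Ppia at -1.34, while Actb stood at 2400 against 2457 CPM (-0.03). Glycolysis had 0 of 17 genes past 2-fold in Matrigel (median -0.03, with a sign that changed with the scaling) and 1 in each direction in collagen (-0.27). Splicing and nuclear RNA-binding genes had 12 of 27 at least 2-fold higher and 0 lower in each culture, with medians of 0.46 and 0.49. These medians were close to those of all tested genes (0.37 and 0.40), beside 27.5% and 33% of all genes at least 2-fold higher, and centred on the median gene both were 0.09. The 12 in Matrigel included the kinases Prpf4b (219 against 62.8 CPM, 1.79) and Clk1 (170 against 49.1, 1.77) and the splicing factors Rbm39 (802 against 319, 1.33) and Rbm25 (538 against 215, 1.32), whose genes span 13.9 to 51.9 kb.

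**Figure D4:**
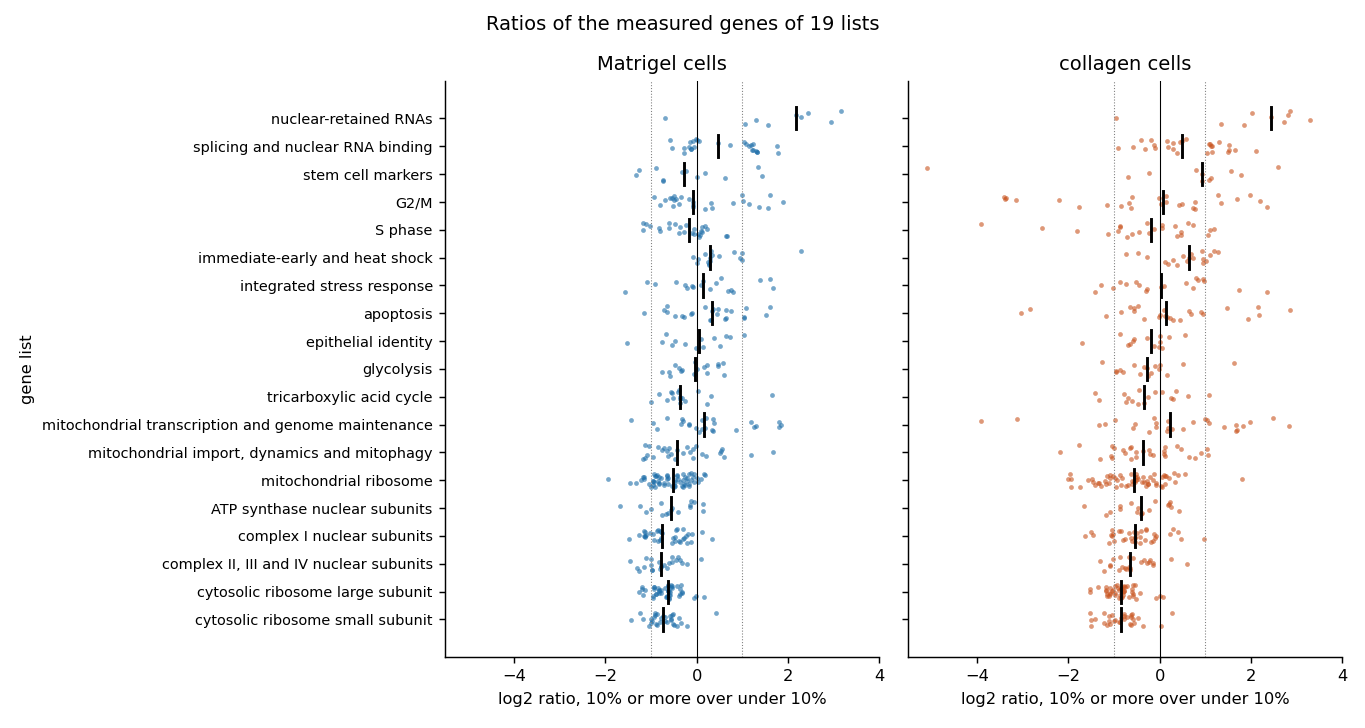
Log2 ratios of the measured genes of 19 lists, cells at 10% or more over cells under 10%, in both cultures, with the median of each list. Nuclear-retained RNAs lie to the right (median 2.19 in Matrigel), and complex I (-0.75) and ribosomal genes (-0.63 and -0.74) to the left.

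Stress and death genes were mixed. Of 19 measured genes of the integrated stress response 3 were at least 2-fold higher and 2 lower in Matrigel (median 0.13), and 2 and 3 in collagen (0.03). Atf3 stood at 245 against 92.9 CPM (1.39) in Matrigel and 37.0 against 20.2 (0.84) in collagen, Ddit3 at 34.2 against 10.6 (1.601) and 54.5 against 27.5 (0.96), and Eif4ebp1 at 61.6 against 184 (-1.56) and 62.2 against 167 (-1.41). In the collagen comparison 51.5% of the Ddit3 counts and 54.5% of the Atf3 counts of high-share cells were in 1 cell. Of the apoptosis genes 5 of 25 were higher and 1 lower in Matrigel (median 0.33), and 5 and 3 of 26 in collagen (0.14), beside 27.5% and 33% of all tested genes higher. Bcl2, which restrains cell death, stood at 41.8 against 13.1 CPM (1.602) and Apaf1, the core of the apoptosome, at 28.3 against 9.16 (1.53). Among p53 targets 3 of 17 were higher and 2 lower in Matrigel (median 0.33) and 3 and 6 in collagen (-0.68), with Sesn1 at 57.2 against 13.4 CPM (2.01). These list medians changed sign with the scaling, except that of the p53 targets in collagen. Per Matrigel cell the median of Bcl2, Apaf1 and Sesn1 was 0 in high-share cells, against 4.85, 0.122 and 5.65 CPM in comparison cells. Counts were found in 34.2, 37.8 and 39.6% of high-share cells against 55.0, 50.3 and 58.0%, at unequal depth. The higher summed levels of these 3 genes thus came from a minority of the high-share cells.

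Immediate-early genes, which respond within minutes to stimuli and to tissue dispersal, included a compact gene among the higher ones. Fosb, of 7.36 kb, stood at 107 against 21.004 CPM (2.30) in Matrigel and 10.1 against 3.83 (1.20) in collagen, where 66.7% of the counts were in 1 cell. Among immediate-early and heat shock genes 2 of 17 were higher in Matrigel (median 0.30, with a sign that changed with the scaling) and 4 of 19 in collagen (0.64), and 0 were lower. Junb stood at 112 against 55.4 CPM (1.00) in Matrigel and 62.2 against 86.9 (-0.48) in collagen. Of the antioxidant and metal response genes 1 of 19 was higher and 4 lower in Matrigel, and 0 and 5 of 20 in collagen, with the thiol proteins Txn1 (779 against 2205 CPM, -1.50) and Prdx1 (647 against 1482, -1.19) among the lower ones. In the fatty acid oxidation list the regulator Ppara was higher (42.8 against 10.1 CPM, 1.98) and the dehydrogenase Acadm lower (41.4 against 109, -1.37). Ppara had counts in 26.1% of high-share and 42.4% of comparison Matrigel cells, at unequal depth.

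High-share cells carried epithelial genes. Of 14 epithelial identity genes 1 was at least 2-fold higher (Cdh1, E-cadherin, 313 against 152 CPM) and 1 lower (Cdx2, an intestinal transcription factor, 58.2 against 170) in Matrigel, and 0 and 1 in collagen. Epcam, the antigen used for the hashtag, stood at 709 against 1136 CPM (-0.68) and 839 against 1524 (-0.86), and Krt18 at 962 against 578 (0.73) and 1330 against 1153 (0.21). Markers of other cell types were low in both groups. In Matrigel the immune list summed to 24.7 CPM against 15.1 with 2 of 12 genes measured, the endothelial list to 28.9 against 10.3 with 1 of 8, the fibroblast list to 2.25 against 6.77 with 0 of 10, and the red blood cell list to 0.233 against 0.223 with 0 of 6. In collagen the sums were 47.1 against 26.4, 30.3 against 12.8, 5.04 against 20.2 and 0 against 0.287 CPM. Of the markers listed, 3 immune, 1 endothelial, 4 fibroblast and 1 red blood cell gene were at 0 in high-share Matrigel cells. The endothelial sum was mostly Tek, a gene of 136 kb, at 17.1 against 4.12 CPM, and the part of these markers in the results was not tested.

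Stem cell markers lay on both sides. Lgr5, the receptor for R-spondins on crypt base stem cells, spans 137 kb and stood at 349 against 138 CPM (1.34) in Matrigel and 198 against 31.9 (2.60) in collagen, with medians per Matrigel cell of 175 against 122. Per collagen cell the median of Lgr5 was 0 in both groups, with counts in 8 of 18 high-share cells (44.4%) and 47.8% of comparison cells, at unequal depth. Rnf43, a Wnt target of 72.8 kb, stood at 158 against 57.9 (1.44) and 155 against 44.0 (1.79). Ascl2, a stem cell transcription factor of 2.44 kb, stood at 18.7 against 46.3 CPM (-1.26) and Gkn3, of 5.68 kb, at 25.4 against 65.2 (-1.33) in Matrigel. Olfm4, whose low values are absent, stood at 930 against 1731 (-0.90). Of the list 2 of 12 were higher and 2 lower in Matrigel, and 5 and 1 of 11 in collagen, beside 27.5% and 33% of all tested genes higher.

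Of the enterocyte markers 6 of 17 were higher and 2 lower in Matrigel, and 5 and 2 of 14 in collagen. Over all tested genes 27.5% and 33% were at least 2-fold higher, so the counts of higher genes here and in the G2/M list are not far from these shares. Alpi, the brush border phosphatase, stood at 118 against 38.7 CPM (1.58) and Sis, sucrase-isomaltase, at 90.4 against 27.1 (1.70), with 34.0% of the Sis counts in 1 cell. With only the shallower Matrigel comparison cells Sis had -0.10 and Alpi 2.37, and the list median was 0.02 in place of 0.51. Fabp1 stood at 203 against 476 CPM (-1.23) in Matrigel and 1359 against 1150 (0.24) in collagen, with 30.9% and 54.2% of the counts in 1 cell. In the G2/M list 6 of 26 were higher and 0 lower in Matrigel (median -0.08), and 6 and 7 in collagen (0.08), medians whose sign changed with the scaling, with Mki67 at 145 against 47.0 CPM (1.61) and 259 against 65.2 (1.97). In the S phase list 0 of 26 were higher and 4 lower in Matrigel (median -0.17), and 3 and 4 of 24 in collagen (-0.19). Mcm2, of the replicative helicase, stood at 35.7 against 82.0 CPM (-1.17) in Matrigel and 31.9 against 20.4 (0.62) in collagen. Against the shallower comparison cells the S phase medians were 0.38 and 1.23, so the list gives no direction.

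Few cells of either group had very high levels of secretory markers. Paneth markers reached 10000 CPM in 1 of 111 high-share and 25 of 1504 comparison cells of Matrigel, goblet markers in 0 and 47, and enteroendocrine markers in 0 and 11. A count of 0 of 111 allows a share of up to 2.703%. Lyz1, the Paneth lysozyme, stood at 42.6 against 129 CPM in Matrigel, with 78.1% of the high-share counts in 1 cell. The goblet gene Spink4 is listed at 0 in high-share cells against 292 CPM and the enteroendocrine gene Chgb at 0 against 98.6 CPM, but values under 183 counts of Spink4 and 122 counts of Chgb in a cell are absent from the table, so no fold is given. With zeros at those values the log2 ratios were 1.83 and 1.98. Low values are absent for 6 of 7 measured Paneth, 4 of 7 goblet and 3 of 6 enteroendocrine markers. As deposited, 6 of 7 Paneth and 7 of 7 goblet markers were at least 2-fold lower in Matrigel. With their zeros at the smallest value kept, the list medians there were 1.43 and 1.52 in place of -1.58 and -2.81. A fixed value gives a higher CPM in the shallower high-share cells, so this change of sign can follow from depth alone and shows no higher level. How far absent values and the few cells with very high levels shape the deposited medians was not tested, so these lists give no direction.

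The 2 cultures, which share no cells, had many of these genes in common. Of 10579 genes tested in both, 2733 were at least 2-fold higher in Matrigel and 3075 in collagen, and 1896 were in both lists, 69.4% of the Matrigel and 61.7% of the collagen list. Of all 10579 genes, 29.1% were in the collagen and 25.8% in the Matrigel list. For lower genes 308 were shared, 56.1% of the 549 Matrigel and 21.9% of the 1408 collagen genes, beside 13.3% of all genes in the collagen and 5.19% in the Matrigel list. Pearson's r of the ratios was 0.64 across these 10579 genes and 0.85 across the 3341 with at least 50 CPM in both cultures. It rests on genes, not replicates, and both comparisons come from 1 library.

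**Figure D5:**
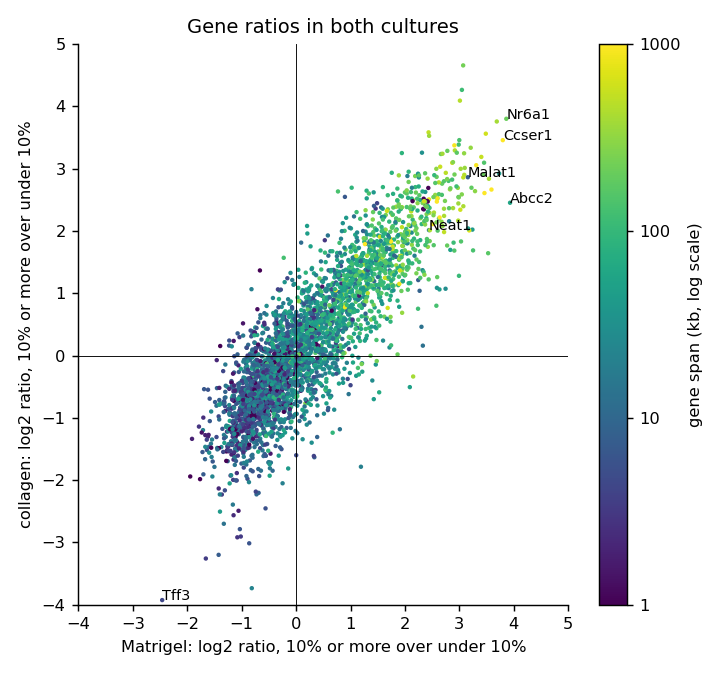
Log2 ratio of cells at 10% or more over cells under 10% in collagen (vertical) against Matrigel (horizontal) for 3268 genes of at least 50 CPM in both cultures with a gene model, shaded by gene span. Long genes lie at the upper right, and a small group of short ones near 2.4 on both axes are nuclear copies of mitochondrial genes. 9 genes lie outside the axes.

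High-share cells still differed by culture in the way comparison cells did. Among 3308 genes with at least 50 CPM, 9.49% were higher by at least 2-fold in collagen than in Matrigel high-share cells, and 11.6% were lower. Of the 50 genes most strongly toward collagen in comparison cells 47 were at least 2-fold higher in collagen also among high-share cells, with a median log2 ratio of 2.68 against 3.59. Of the 50 most strongly toward Matrigel 45 were at least 2-fold lower in collagen high-share cells, with a median of -2.04 against -2.56. Msln, Ly6a and Axin2 were picked after their values were seen. Msln, mesothelin, had a log2 ratio of collagen over Matrigel of 5.64 in high-share cells and 6.70 in comparison cells. For Ly6a, a marker of the regenerating epithelium, it was 5.83 and 5.40. Ly6a lacks low values in the table, as do 10 of the 50 genes toward collagen and 4 of the 50 toward Matrigel, and for such genes a ratio between cultures can be overstated. For Axin2, a feedback target of Wnt signalling, the ratio was -3.26 and -3.36.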

How the data were processed

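Expression was measured in 1 cDNA library and 1 hashtag library of pooled collagen and Matrigel cells. STARsolo 2.7.10a, cutadapt 4.1, R 4.2.1 and the mouse build GRCm39 are named per the submitters' processing notes. Tool roles, annotation, intron reads and the collapsing of read copies were not given in the sources used here. The authors' deposited expression values are unscaled expected counts for 37172 genes and 2090 cells, and 75.6% of those above 0 are whole within 1e-06. For 49 genes low values are absent (smallest kept 3.33 to 183). Hashtag values, as deposited, are whole-number counts, and 9 further hashtag columns were not used. Cell names gave the culture, and cells named as doublets entered no comparison. No further filter on cells and no doublet caller was applied.

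Counts were summed over cells and scaled to 1000000 without mt- genes. Ratios are log2((high-share CPM + 1)/(comparison CPM + 1)), which understates changes of low genes. A gene was tested at 5 CPM or more in either group, and a 2-fold ratio was the limit. Without replicate suspensions no p-value was computed. Poisson and Clopper-Pearson intervals at 95% and the limit of 3 counts for a zero cover counting error only, and sums were rounded for them. Matrigel high-share and comparison cells held a median of 42366 and 184053 counts, and collagen cells 35891 and 126983.

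Named genes were the 15 largest log2 ratios in each direction in Matrigel among 3664 genes with at least 50 CPM and 100 counts, in at least 10% of cells and with at most 25% of counts in 1 cell, without mt-, ribosomal, predicted or clone names. Added were up to 4 genes per list reaching 10 CPM and a set kept in every case, such as Malat1, Lgr5, Atf3 and Epcam. Some genes that the rule names are left out here. Norad, Xist and genes noted as such were chosen after their values were seen. The high-share cells, the 36 lists and the rules were chosen with earlier results of these data known. Across the lists 33 symbols had no entry. Gene spans, exonic lengths and transcript sequences were matched by symbol to GENCODE M21 (GRCm38, another build than the authors'), for 96.5% of tested Matrigel genes, so no coordinates are given. Python 3.11.15, numpy 2.4.6, pandas 2.3.3, scipy 1.17.1 and matplotlib 3.10.9 were used, and the calculation was tested on simulated data. Alternatives changed the threshold, comparison cells, scaling, pseudocount and floor.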

Additional observations from a re-analysis of the deposited data

Results flagged for a closer look

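Cells named as doublets in the deposited table entered no comparison. Of these 139 cells, 11 held at least 10% mitochondrial counts, a share of 7.91% (exact 95% binomial interval 4.02 to 13.7%). Their mitochondrial share ran from 10.9 to 39.0% with a median of 13.9%. Malat1 summed to 4441 CPM in them against 566 CPM in the other doublet-named cells, and Neat1 to 167 against 42.5 CPM. The median share of counts on genes of 100 kb and more was 8.60% against 4.22%. Whether these names mark more than 1 cell was not tested.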

How the results depend on the processing

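No paired analysis was possible because each culture is 1 suspension in 1 pooled library. The share of cells selected was 31.5% in Matrigel and 17.3% in collagen at a threshold of 5%, 5.201% and 2.38% at 15%, 3.901% and 0.893% at 20%, 0.991% and 0% at 30%, and 9.35% and 10.1% with the nuclear copies counted as mitochondrial. At thresholds of 15% and 20% the genes at least 2-fold lower numbered 1181 and 1719 in Matrigel (598 at 10%) and 2693 and 4195 in collagen (1515 at 10%). Comparison cells within the depth quartiles gave 2076 lower genes in Matrigel and 2332 in collagen, and cells no deeper than the deepest high-share cell gave 929 in Matrigel. With the median over cells in place of the sum, 515 genes were higher and 5148 lower in Matrigel, and 740 and 3605 in collagen, since a gene found in under 50% of cells has a median of 0. A pseudocount of 10 CPM gave 1446 and 256 in Matrigel and 2008 and 680 in collagen. Centring on the median gene gave 1914 higher (16.6%) and 1535 lower (13.3%) in Matrigel and 2571 (21.9%) and 2527 (21.5%) in collagen. Scaling to the total with mitochondrial counts gave 1143 lower in Matrigel, scaling without ribosomal protein genes 1195. With the copies counted as mitochondrial, 1980 were higher and 63 lower in Matrigel and 600 lower in collagen. The alternatives on the copies and on cells no deeper than the deepest high-share cell were chosen after seeing the data. A floor of 20 CPM gave 2014 higher in Matrigel and 2487 higher and 808 lower in collagen, and no floor gave 2754 lower in collagen. The counts of genes therefore depend on the scaling, and the cause of each change was not tested beyond what an alternative changes by construction.

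Within the depth quartiles the collagen ratios of Malat1 (-0.25) and Neat1 (-0.44) changed sign. With zeros of genes without low values at the smallest kept, Paneth and goblet medians changed sign in Matrigel (1.43 and 1.52) and collagen (0.50 and 1.66). Such a fixed value gives a higher CPM in shallower cells, so that change can follow from depth alone. With cells holding Olfm4 only, the enteroendocrine median changed sign in Matrigel (0.19). Thinned to 26378 and 27083 counts, Malat1 had 3.03 and 2.21. Of 30 list medians 21 kept their sign under 4 other scalings in Matrigel and 24 in collagen. At least 500 detected genes left every cell in place, and an alternative without mitochondrial ribosomal RNA genes was not run because the 13 mt- genes do not include them. With 18 cells in collagen, 1 cell holds over 25% of the counts of many genes named.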

Other observations

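Of the fetal and regenerative markers, 4 of 10 measured were at least 2-fold higher and 0 lower in high-share Matrigel cells (median log2 ratio 0.81), and 3 and 1 of 14 in collagen (0.25, a median whose sign changed with the scaling). Over all tested genes 27.5% and 33% were at least 2-fold higher. Low values are absent for 6 of the measured markers in each culture. Areg, a ligand of the EGF receptor and 1 of these 6, stood at 217 against 44.3 CPM in Matrigel and 368 against 179 in collagen. Anxa10, of the annexin family, stood at 42.6 against 5.47 CPM (2.75) in Matrigel and 97.5 against 76.6 (0.35) in collagen, and Anxa1 at 22.1 against 4.78 (2.00) and 158 against 123 (0.36), with 28.4% and 63.8% of the high-share counts in 1 cell. Against the shallower comparison cells the list medians were 1.22 in Matrigel and -1.35 in collagen. There Anxa10 had 1.59 and -2.09, Anxa1 1.33 and -1.28 and Areg 2.46 and 1.48, so the list gives no direction in collagen. The metallothionein Mt1 stood at 2950 against 4829 CPM (-0.71) in Matrigel and 678 against 405 (0.74) in collagen. Of 10 tuft cell markers only 1 was measured in each culture.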
